A study of Arabidopsis thaliana with 30 samples.

Results

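A set of 10 genes that carry xylem formation in Arabidopsis thaliana was followed across roots and shoots of wild-type and mutant seedlings. They were VND6 (AT5G62380), VND7 (AT1G71930), MYB46 (AT5G12870), MYB83 (AT3G08500), KNAT7 (AT1G62990), CESA4, CESA7, CESA8, XCP1 and XCP2, chosen by their gene codes and not by any measured value, and they made up 10 of the 33199 features in the deposited table. Messenger RNA had been sequenced in 30 libraries from seedlings 7 days old, which were divided at the hypocotyl into roots and shoots. Seedlings were of the wild type Columbia (Col, given as Col-0 in the labels) or carried the allele ahp4-2 of AHP4, a histidine phosphotransfer protein of the cytokinin pathway. Treatment was 2 h in liquid medium holding 100 nM 6-benzylaminopurine (BA, a synthetic cytokinin) or the solvent alone (mock), and every group received the solvent, 0.1% DMSO. Organ, genotype and treatment made 8 groups, namely Col root mock, Col root BA, ahp4 root mock, ahp4 root BA and the same combinations for shoots. Each root group and each Col shoot group had 4 libraries, and each of the remaining groups, ahp4 shoot mock and ahp4 shoot BA, had 3. A library is a pool of whole organs, and the labels do not say whether the pools were grown separately, so a p-value here reflects only library-to-library spread, possibly technical. The mutant was represented by a single allele.

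Xylem vessels carry water, and their cells build a thick secondary wall, digest their contents and die. The NAC factors VND6 and VND7 switch this programme on, VND7 for protoxylem and VND6 for metaxylem in the root. They activate the MYB factors MYB46 and MYB83, which act redundantly as master regulators of the secondary wall, and the homeodomain protein KNAT7 works below them as a modulator of wall deposition. CESA4, CESA7 and CESA8 form the cellulose synthase complex of the secondary wall and are all needed for it. XCP1 and XCP2 are papain-like cysteine peptidases that degrade the contents of the dying vessel cell. Cytokinin is known in the root as a hormone that holds procambial cells back from protoxylem identity.

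The labelled organs matched their marker genes. The summed level of 4 shoot markers was 51.9 to 291.7 FPKM in the 16 root libraries and 31763.2 to 50115.8 FPKM in the 14 shoot libraries, and that of 6 root markers was 4820.1 to 8330.0 FPKM in roots and 361.0 to 816.1 FPKM in shoots. The root sum was mostly PYK10, at 4727.7 to 8219.1 FPKM in roots and 349.5 to 802.1 in shoots. Of the 6, SCR alone overlapped between the organs, at 8.39 to 14.3 FPKM in roots and 6.43 to 13.7 in shoots. FPKM stands for sequenced fragments relative to the gene's length and the depth of its library. Reads rebuilt from the FPKM steps totalled 9205127 to 13779004 per library. AHP4 averaged 1.01 ± 0.495 FPKM in Col root mock and 0.378 ± 0.0409 in ahp4 root mock (SD, n = 4 each), and 5.26 ± 3.59 (n = 4) and 1.51 ± 0.877 FPKM (n = 3) in mock shoots. The cytokinin targets ARR5, ARR7 and ARR15 rose in each of the 4 BA comparisons. One library, ahp4 root mock replicate 1, is titled ahp4 and mock but carries Col-0 and BA in its characteristics. It was grouped by its title, and results that change without it are given both ways. The 4 ahp4 root mock libraries, this one included, had ARR5 at 13.7 to 36.5 FPKM, against 140.0 to 173.9 in Col root BA and 166.2 to 203.0 in ahp4 root BA. They had ARR15 at 0.166 to 0.528 FPKM, against at least 7.02 and at least 6.71, and AHP4 at 0.347 to 0.435 FPKM, against 0.539 to 1.71 in Col root mock.

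The promoters of the 5 wall and peptidase genes are shown because these genes are known targets of the VND and MYB factors, and their responses to BA are set beside those of the factors below. Each is the 300 bases before the annotated gene start in the RefSeq assembly TAIR10.1, 5′ to 3′ on the gene's own strand. Capitals mark a tracheary-element-regulating cis-element (TERE, searched as CTT, any base, AAAGC, any base and A, the kind of sequence VND factors use) or a secondary wall MYB-responsive element (SMRE, searched as ACC, A or T, A, A or C, and C or T, the kind MYB46 and MYB83 bind), each searched on both strands.
CESA4 (AT5G44030), chr5:17714090-17714389, plus strand: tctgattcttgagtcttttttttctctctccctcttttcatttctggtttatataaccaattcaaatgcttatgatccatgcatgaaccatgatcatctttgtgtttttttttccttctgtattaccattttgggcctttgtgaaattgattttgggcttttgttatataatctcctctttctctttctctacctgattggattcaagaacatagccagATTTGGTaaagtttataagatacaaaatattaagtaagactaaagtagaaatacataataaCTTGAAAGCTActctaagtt
CESA7 (AT5G17420), chr5:5741501-5741800, minus strand: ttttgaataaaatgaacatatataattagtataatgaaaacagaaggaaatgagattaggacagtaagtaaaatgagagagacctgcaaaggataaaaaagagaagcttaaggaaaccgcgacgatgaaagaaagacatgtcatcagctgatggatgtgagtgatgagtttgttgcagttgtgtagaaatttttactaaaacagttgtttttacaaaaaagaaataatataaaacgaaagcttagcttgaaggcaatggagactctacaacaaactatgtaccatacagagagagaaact
CESA8 (AT4G18780), chr4:10316887-10317186, minus strand: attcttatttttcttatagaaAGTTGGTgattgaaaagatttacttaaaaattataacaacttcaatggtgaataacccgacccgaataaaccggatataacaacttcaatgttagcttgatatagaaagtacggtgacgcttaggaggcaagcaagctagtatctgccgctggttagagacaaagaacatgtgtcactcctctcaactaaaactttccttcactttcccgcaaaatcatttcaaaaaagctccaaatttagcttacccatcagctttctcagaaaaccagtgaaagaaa
XCP1 (AT4G35350), chr4:16810182-16810481, plus strand: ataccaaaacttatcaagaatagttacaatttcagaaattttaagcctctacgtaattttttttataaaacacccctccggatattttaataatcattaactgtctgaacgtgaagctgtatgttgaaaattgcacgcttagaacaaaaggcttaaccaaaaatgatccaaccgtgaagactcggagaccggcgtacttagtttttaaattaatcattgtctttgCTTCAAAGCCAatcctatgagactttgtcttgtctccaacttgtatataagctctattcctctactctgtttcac
XCP2 (AT1G20850), chr1:7251811-7252110, plus strand: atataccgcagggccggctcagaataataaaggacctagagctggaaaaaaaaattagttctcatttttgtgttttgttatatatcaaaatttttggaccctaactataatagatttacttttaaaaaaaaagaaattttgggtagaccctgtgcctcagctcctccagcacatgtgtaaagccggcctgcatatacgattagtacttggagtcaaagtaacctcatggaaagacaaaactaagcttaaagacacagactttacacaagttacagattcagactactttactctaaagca

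A TERE match lay 20 bases before the start of CESA4 and 75 bases before that of XCP1, on the strand of the gene. This motif was found in 118 of 27443 promoters of the same length (0.43%). An SMRE match, counted over its 8 spellings, lay 81 bases before the start of CESA4 and 279 before that of CESA8, both on the opposite strand, and in VND7 and MYB83 among the regulators. It was found in 9311 of the promoters (33.9%). The windows of CESA7 and XCP2 held neither set of letters, nor did those of VND6, MYB46 and KNAT7, and a match is a description of letters only.

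The 10 genes differed widely in level. In Col root mock, XCP2 averaged 81.9 ± 9.86 FPKM and XCP1 68.0 ± 4.58, KNAT7 24.9 ± 4.23, and the cellulose synthases 12.7 ± 0.478 (CESA4), 10.8 ± 0.792 (CESA7) and 8.47 ± 0.348 FPKM (CESA8). The regulators other than KNAT7 stood far below, at 2.78 ± 0.205 (MYB46), 1.31 ± 0.254 (VND7), 0.881 ± 0.349 (VND6) and 0.572 ± 0.187 FPKM (MYB83), each with n = 4. These levels are per length, so the peptidases stood above the enzymes of the wall, and those above the NAC and MYB factors. KNAT7 stood between the peptidases and the enzymes of the wall. The low levels rest on few reads, 8 to 62 per root library for VND6 and 7 to 50 for MYB83, against 1261 to 2157 for XCP2.

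**Figure D1:**
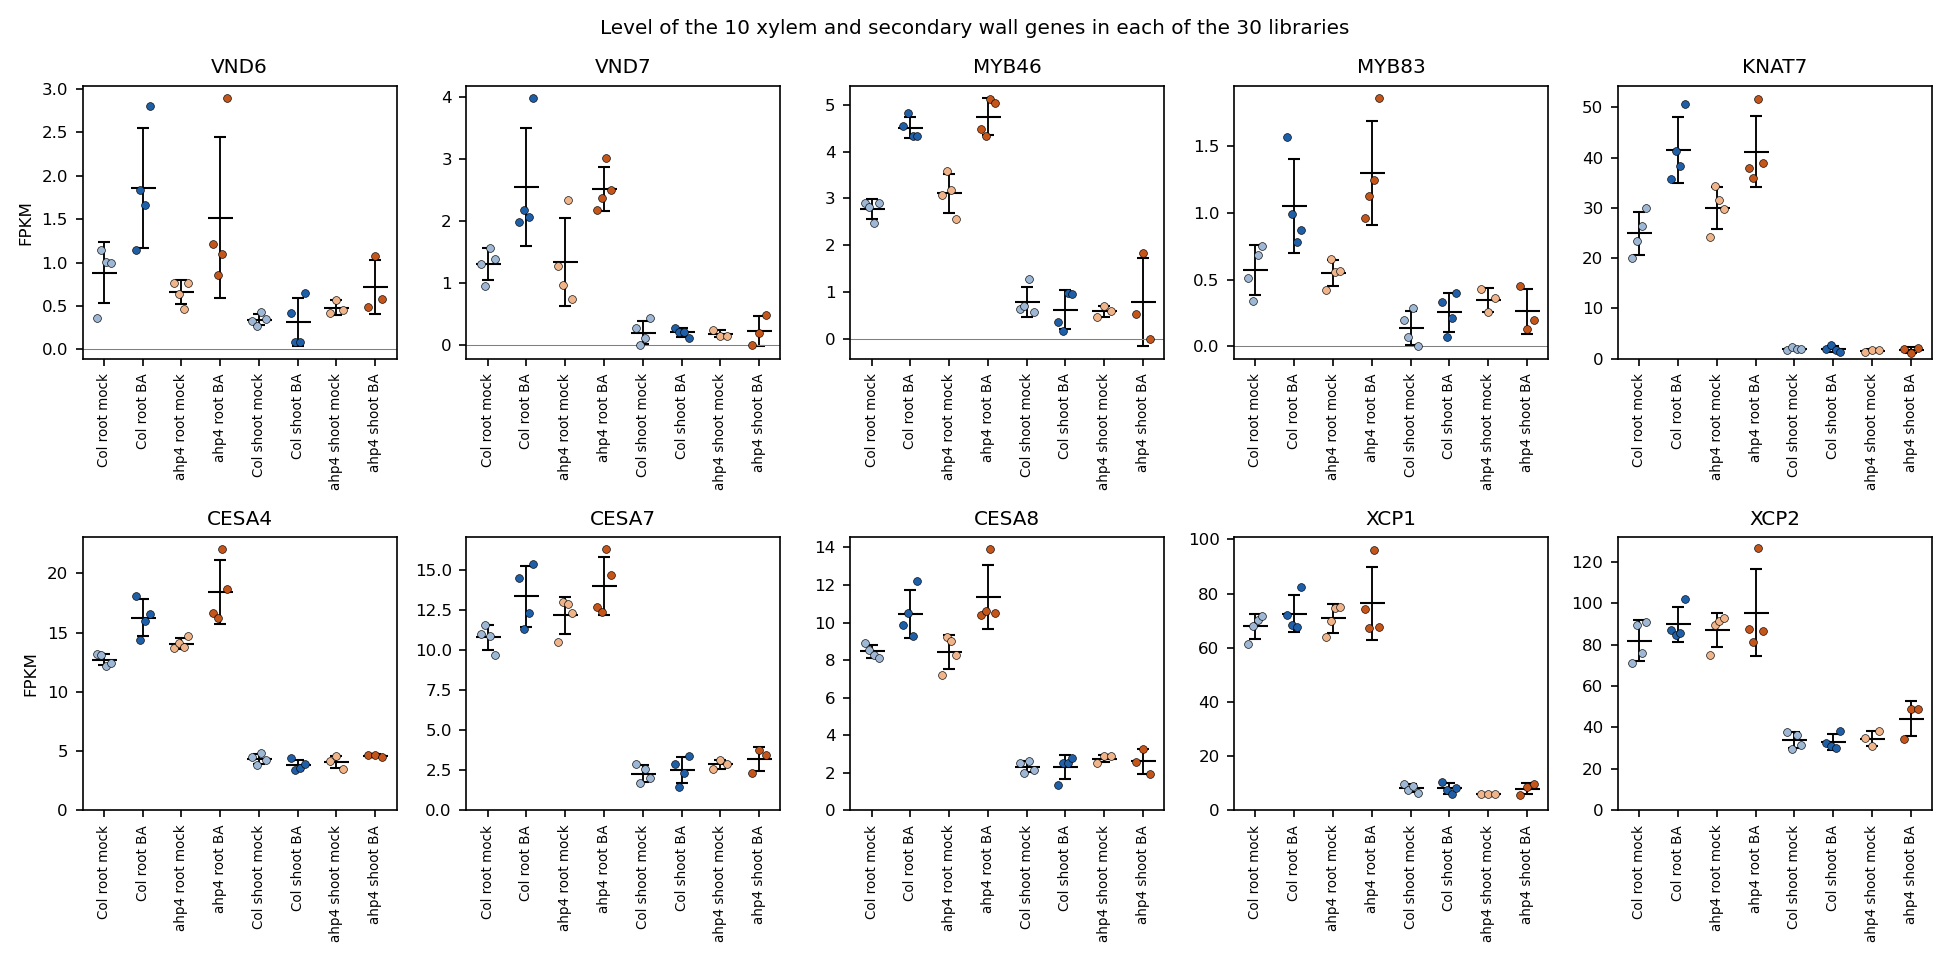
FPKM (vertical axis, linear) of each gene in each of the 30 libraries by group, as points, with group mean and SD. On the deposited scale each gene averaged higher in roots than in shoots of the same genotype and treatment (under mock, VND6 and MYB83 turned in ahp4 with quantile normalization), and in roots the BA mean of each gene stood above the mock mean of the same genotype. Col root mock and BA libraries overlapped for VND6, CESA7, XCP1 and XCP2.

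After BA, 3 of the 5 regulators and 1 of the 3 cellulose synthases rose in Col roots, and 4 of 5 and 2 of 3 rose in ahp4 roots, while neither peptidase passed the test in either genotype. In Col roots, limma called 4 of the 10 genes higher after BA (VND7, MYB46, KNAT7 and CESA4) and 0 lower, beside 11.8% of all 19418 tested features called higher and 8.75% lower. In ahp4 roots it called 6 of the 10 higher (VND7, MYB46, MYB83, KNAT7, CESA4 and CESA8) and 0 lower, beside 11.4% and 9.26% of all tested features. MYB83 passed the filter of 1 FPKM in at least 3 root libraries through BA libraries alone, where it is high. Its calls in ahp4 roots are counted here, but nothing is read from them. A gene is called where its limma adjusted p (Benjamini-Hochberg over all tested features) is under 0.05, and changes are on the log2(FPKM + 1) scale, which understates the change of low genes. In pooled organs, more cells of a type and more RNA per cell cannot be told apart. Without ahp4 root mock replicate 1, limma called 3 of the 10 in ahp4 roots, MYB46, MYB83 and CESA4. Over all tested features, leaving out 1 library gave 3178 to 4230 calls in ahp4 roots, against 4020 with all libraries. With a pseudocount of 0.1 in place of 1, the changes of the low regulators were larger, at 1.03 for VND6 and 0.78 for MYB83 in Col and 0.96 and 1.08 in ahp4, and the same members were called. Among markers of other tissues, 4 summed phloem markers had 57.3 to 70.8 FPKM in Col root mock and 60.0 to 79.6 in Col root BA, and 43.8 to 72.8 and 54.4 to 80.4 in the ahp4 groups. The 2 cambium markers had 7.14 to 11.8 and 9.41 to 11.6 FPKM in Col and 11.5 to 13.8 and 11.5 to 14.4 in ahp4, and the 4 shoot markers 51.9 to 288.6 and 96.0 to 291.7 in Col and 61.5 to 233.6 and 116.1 to 214.3 in ahp4. These sums overlapped between mock and BA, but single markers did not all do so. In Col roots the phloem gene APL went from 7.81 to 10.3 FPKM under mock to 4.81 to 5.88 under BA and was called lower (-0.64 ± 0.13), and the shoot marker HEMA1 went from 24.3 to 31.2 to 39.7 to 50.8 FPKM. HEMA1 and LHCB2.1 were called higher in both genotypes, LHCB2.1 with a mean of 5.82 FPKM under mock and 18.9 under BA in Col roots. Their part in the result was not tested.

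VND7 had 1.31, 0.962, 1.57 and 1.39 FPKM in Col root mock and 1.99, 2.18, 2.07 and 3.98 in Col root BA, where every BA library lay above every mock library. It rose by 0.60 ± 0.19 on the log2 scale (SE, limma adjusted p = 0.0385), and the call was lost in 6 of 18 alternatives, among them leaving out Col root BA replicate 4 or any of 3 mock libraries (highest limma adjusted p = 0.134). In ahp4 roots VND7 had 1.28, 0.982, 2.35 and 0.753 FPKM under mock and 2.18, 2.38, 3.02 and 2.50 under BA, and the groups overlapped through 1 mock library. The change there was 0.63 ± 0.19 (limma adjusted p = 0.0300, highest 0.103 when a library was left out). VND6 had 0.367, 1.15, 1.01 and 1.00 FPKM in Col root mock and 1.14, 1.84, 1.66 and 2.80 in Col root BA, so the lowest BA library fell within the mock range. Its change did not pass the test in Col (0.59 ± 0.22, limma adjusted p = 0.0699). The limma adjusted p was under 0.05 in 5 of 18 alternatives and at most 0.206. Those 5 included quantile normalization (0.0465) and the average over both genotypes (0.00962), which is not a change of Col alone. In ahp4 VND6 did not pass either (0.54 ± 0.22, limma adjusted p = 0.0987). Mock libraries there had 0.764, 0.643, 0.467 and 0.769 FPKM and BA libraries 1.21, 0.862, 1.10 and 2.89. The exons of VND6 share 77 bases with AT5G62390 on the opposite strand, a gene at 88.1 FPKM in Col root mock. Whether counting used strand is not stated in the sources used here, and the VND6 level is therefore uncertain.

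MYB46 had the smallest adjusted p of the 10 in both genotypes. It had 2.91, 2.82, 2.47 and 2.90 FPKM in Col root mock and 4.55, 4.82, 4.33 and 4.34 in Col root BA, with no overlap and a rise of 0.55 ± 0.10 (limma adjusted p = 0.000703). In ahp4 roots it had 3.08, 3.59, 3.19 and 2.57 FPKM under mock and 4.49, 4.33, 5.11 and 5.04 under BA, again without overlap, a rise of 0.49 ± 0.10 (limma adjusted p = 0.00167). Fitting roots and shoots together removed both calls (limma adjusted p = 0.0617 in Col and 0.0975 in ahp4). MYB83, its redundant partner, was lower by level and more scattered. It had 0.512, 0.337, 0.684 and 0.754 FPKM in Col root mock and 1.57, 0.992, 0.786 and 0.873 in Col root BA, which did not overlap but did not pass the test (0.38 ± 0.16, limma adjusted p = 0.0968). In ahp4 roots its mock libraries had 0.422, 0.653, 0.558 and 0.562 FPKM and its BA libraries 0.965, 1.13, 1.25 and 1.86, a rise of 0.56 ± 0.16 (limma adjusted p = 0.0168). That call was lost without ahp4 root BA replicate 4 (limma adjusted p = 0.0625). MYB83 reached 1 FPKM in BA root libraries alone, so it passed the filter through the groups where it is high, and nothing is read from that call. With no filter on low features its limma adjusted p was 0.00982 in ahp4 and 0.0708 in Col.

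KNAT7 had 20, 23.4, 26.4 and 29.9 FPKM in Col root mock and 35.8, 41.4, 38.3 and 50.7 in Col root BA. The groups stood well apart, and the rise of 0.72 ± 0.14 (limma adjusted p = 0.00178) was kept in each of 18 alternatives. In ahp4 roots the mock libraries had 24.3, 34.3, 31.5 and 29.8 FPKM and the BA libraries 38.0, 36.0, 51.7 and 39.0. The rise there was 0.44 ± 0.14 (limma adjusted p = 0.0366) and was lost in 6 of 17 alternatives, without ahp4 root mock replicate 1, 3 or 4, without ahp4 root BA replicate 3 or 4, or with no filter on low features (highest limma adjusted p = 0.125).

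CESA4 rose in both genotypes. It had 13.2, 13.1, 12.2 and 12.4 FPKM in Col root mock and 18.1, 14.4, 16.0 and 16.6 in Col root BA, a rise of 0.33 ± 0.09 (limma adjusted p = 0.0172, and 0.0542 without Col root BA replicate 1). In ahp4 roots it had 13.7, 14.1, 13.8 and 14.7 FPKM under mock and 16.7, 16.2, 22.1 and 18.7 under BA, a rise of 0.36 ± 0.09 (limma adjusted p = 0.0105) that no alternative removed. Both comparisons were free of overlap. CESA8 had 8.93, 8.55, 8.29 and 8.13 FPKM in Col root mock and 9.85, 10.5, 9.27 and 12.2 in Col root BA, which did not overlap, with a change of 0.27 ± 0.11 that did not pass (limma adjusted p = 0.0860). In ahp4 roots it rose by 0.39 ± 0.11 (limma adjusted p = 0.0154), from 7.18, 9.24, 9.0 and 8.29 FPKM to 10.4, 10.6, 13.9 and 10.5, and the call was lost without ahp4 root mock replicate 1 or ahp4 root BA replicate 3 (highest limma adjusted p = 0.0575). CESA7, the third subunit, passed in neither genotype. It had 11.0, 11.6, 10.9 and 9.72 FPKM in Col root mock against 14.5, 11.3, 12.3 and 15.4 in Col root BA (0.28 ± 0.11, limma adjusted p = 0.0796), and in ahp4 roots the change was 0.19 ± 0.11 (limma adjusted p = 0.249).

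The peptidases showed no change that passed. XCP1 had 61.5, 68.1, 70.4 and 71.8 FPKM in Col root mock and 72.0, 68.4, 67.5 and 82.3 in Col root BA, and XCP2 had 71.2, 89.6, 76.0 and 90.9 against 86.9, 84.6, 85.4 and 102. In both, mock and BA libraries were interleaved. The changes were 0.09 ± 0.11 for XCP1 (limma adjusted p = 0.589) and 0.13 ± 0.13 for XCP2 (limma adjusted p = 0.500) in Col, and 0.10 ± 0.11 and 0.11 ± 0.13 in ahp4 (limma adjusted p = 0.576 and 0.586). Without ahp4 root BA replicate 3 the ahp4 changes were -0.02 and -0.03. Their interval of 2 SE in Col ran from -0.12 to 0.30 for XCP1 and from -0.12 to 0.39 for XCP2. Over both genotypes, in an average of the 2 responses added after the values were seen, limma called 8 of the 10 genes higher (19% of all tested features were called higher), leaving out XCP1 (0.09, limma adjusted p = 0.355) and XCP2 (0.12, limma adjusted p = 0.308). MYB83, counted in the 8, passed the filter through BA libraries alone.

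**Figure D2:**
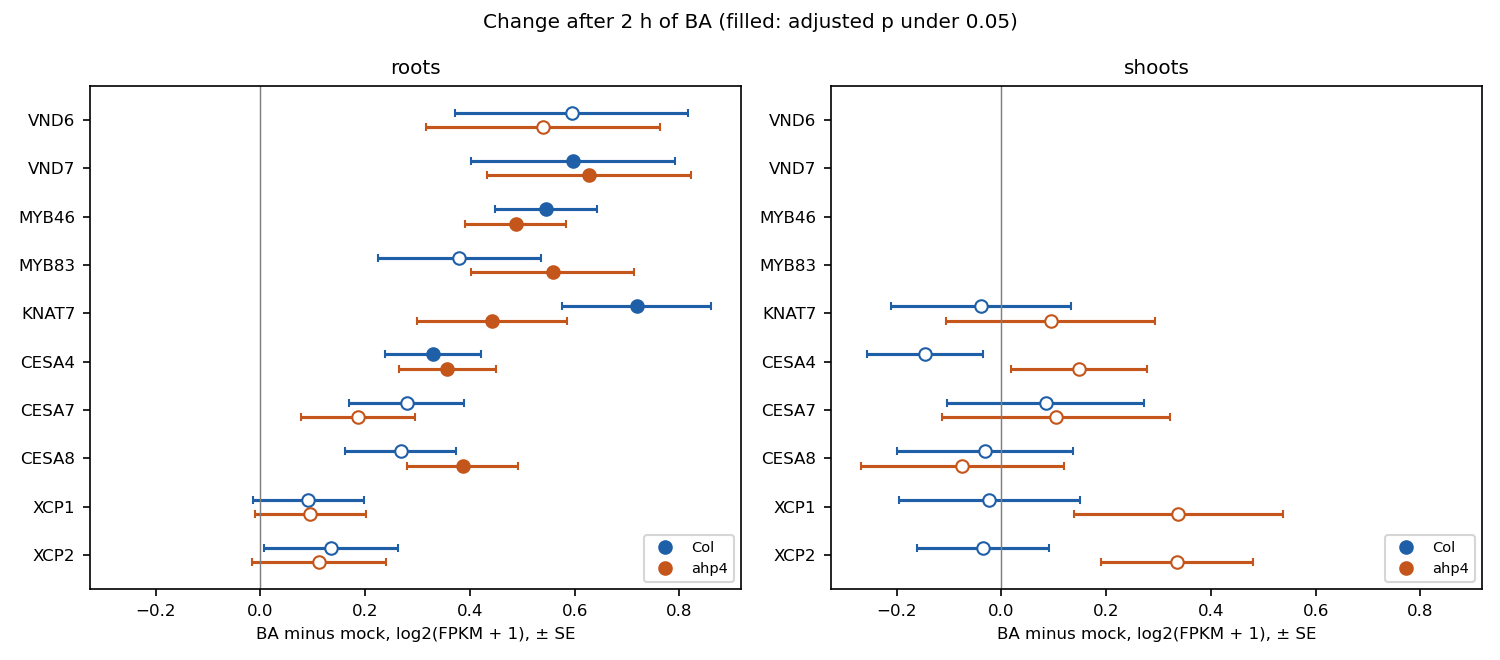
Change after BA (horizontal axis, BA minus mock on log2(FPKM + 1)) with SE for Col and ahp4 in roots and shoots, filled where the limma adjusted p was under 0.05. Root changes ran from 0.09 (XCP1) to 0.72 (KNAT7) in Col, and no shoot change passed. VND6, VND7, MYB46 and MYB83 were too low to test in shoots. MYB83 passed the root filter through BA libraries alone, so nothing is read from whether its root points are filled.

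Ratios within a library do not depend on its scaling. They are given for 5 pairs of members that were chosen after their values were seen, and so as a description with no test. KNAT7 over XCP2 was 0.305 ± 0.0404 in Col root mock and 0.462 ± 0.0389 in Col root BA (SD, n = 4 each), with no overlap between 0.261 to 0.347 and 0.412 to 0.496. In ahp4 roots it was 0.343 ± 0.0292 under mock and 0.434 ± 0.0192 under BA, again without overlap. MYB46 over CESA7 was 0.256 ± 0.0363 under mock and 0.340 ± 0.0178 under BA in ahp4 roots, without overlap, and 0.258 ± 0.0304 and 0.343 ± 0.0621 in Col roots, where the groups overlapped.

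The root libraries did not contribute evenly. Col root BA replicate 4 held the highest value of its group in 7 of the 10 genes, with a median deviation from the group mean of 0.20 on the log2 scale, against 0.03 over all tested features. In the same way ahp4 root BA replicate 3 was highest in 8 of the 10 (median deviation 0.23, against 0.02 over all), and the other secondary wall cellulose and xylan genes deviated by 0.19 and 0.22 in these libraries. Low values gathered in single libraries as well. The library with conflicting labels, ahp4 root mock replicate 1, was lowest of its group in 7 of the 10 genes. Its median deviation was -0.13, against -0.02 over all tested features. Replicate 2 of ahp4 root BA was also lowest in 7 (-0.16, against -0.01). Without Col root BA replicate 4 limma called 3 of the 10 genes in Col roots. Without ahp4 root BA replicate 3 or 4, or without ahp4 root mock replicate 1, it called 3 in ahp4 roots. Leaving out 1 library also moved calls over all tested features, from 3982 to between 3053 and 3877 in Col roots. In ahp4 roots they went from 4020 to between 3178 and 4230. Summed phloem markers ran from 43.8 to 80.4 FPKM over all root libraries. Col root BA replicate 4 had 60.0, the lowest of a group that reached 79.6. Replicate 3 of ahp4 root BA had 80.0, in a group of 54.4 to 80.4. In these libraries the summed root markers, mostly PYK10, were the highest of their group at 7099.0 and 7637.4 FPKM. Their part in the result was not tested.

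In shoots BA moved none of the tested genes past the test, and all but XCP2, at 29.8 to 49.1 FPKM, stayed at or under 10.5 FPKM. Only KNAT7, the 3 CESA genes and both XCP genes passed the filter of 1 FPKM in at least 3 shoot libraries, and limma called 0 of these 6 in Col (8.15% of 18246 features were called in either direction) and 0 in ahp4 (3.92%), with 0 and 1 at an unadjusted p under 0.05. KNAT7 ran from 1.14 to 2.68 FPKM over the 14 shoot libraries, CESA4 from 3.43 to 4.85 and XCP1 from 5.79 to 10.5, mock and BA mixed. The widest change was that of the peptidases in ahp4 shoots, where XCP2 had 34.7, 30.8 and 38.2 FPKM under mock and 34.6, 49.0 and 49.1 under BA (0.34 ± 0.15, limma adjusted p = 0.241) and XCP1 0.34 ± 0.20 (limma adjusted p = 0.410). The 4 summed phloem markers had 145.2 to 187.0 FPKM in ahp4 BA shoots against 120.4 to 128.4 under mock, and 144.1 to 173.8 against 110.1 to 134.3 in Col. The gene SUC2, a sucrose transporter, carried this, with means of 95.6 and 136.4 FPKM in ahp4 and 96.7 and 129.5 in Col, while APL ran from 10.4 to 12.8 and from 6.87 to 11.9 in ahp4 and had means of 10.9 and 11.1 in Col. The 2 cambium markers had 8.94 to 9.23 FPKM in Col mock shoots and 5.88 to 7.69 in Col BA shoots, without overlap, and 7.27 to 8.70 and 5.84 to 8.62 in ahp4. Their part in the result was not tested. VND7 was listed at 0 in 2 shoot libraries and MYB46 and MYB83 in 1 each, and without the filter none of the 4 regulators was called in shoots.

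The root and shoot responses to BA were compared in 1 fit of all 8 groups. In Col, the response of roots exceeded that of shoots by 0.76 ± 0.22 for KNAT7 (limma adjusted p = 0.0219) and 0.48 ± 0.13 for CESA4 (limma adjusted p = 0.0186), 2 of the 6 genes that passed the filter in both organs, beside 5.62% of 20818 tested features called in that direction. The KNAT7 call was lost without Col root mock replicate 1 or Col root BA replicate 4 (highest limma adjusted p = 0.0583), with a pseudocount of 0.1 and with limma-voom on rebuilt reads, and that of CESA4 was kept in each of 24 alternatives. In ahp4 0 of the 6 were called (4.37% of all tested features). MYB83 had a difference of 0.66 ± 0.21 there (limma adjusted p = 0.0485, over 0.05 in 15 of 21 alternatives), but it entered this fit through its root libraries alone, with 0 to 9 reads per shoot library, and nothing is read from that p. Whether the organ difference itself differed between genotypes was not tested.

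The genotypes did not differ by test in any of the 10 genes in roots or of the 6 tested in shoots. Limma called 0 of 10 between ahp4 and Col in mock roots (0.0875% of all tested features called), 0 of 10 in BA roots (0.0257%), 0 of 6 in mock shoots and 0 of 6 in BA shoots (0.00548% each), with 0, 0, 0 and 1 at an unadjusted p under 0.05, and 0 in each alternative, limma-voom on rebuilt reads included. The 1 was XCP2 in BA shoots, higher in ahp4 by 0.40 ± 0.14 (limma adjusted p = 0.944). The largest difference in mock roots was that of KNAT7, 0.26 ± 0.14, and its interval of 2 SE ran from -0.03 to 0.55. CESA4 had 13.7 to 14.7 FPKM in ahp4 root mock against 12.2 to 13.2 in Col root mock without overlap (2.54% of all tested features stood higher in ahp4 in this way), with a change of 0.14 ± 0.09 (limma adjusted p = 0.686). In mock shoots XCP1 had 5.92 to 6.03 FPKM in ahp4 against 6.32 to 9.77 in Col without overlap (2.18% of all tested features stood lower in ahp4 in this way), with a change of -0.37 ± 0.19 (limma adjusted p = 1.0). In BA shoots CESA4 had 4.46 to 4.68 FPKM in ahp4 against 3.43 to 4.4 in Col (2.14% stood higher), with a change of 0.22 ± 0.12 (limma adjusted p = 0.944). The BA response did not differ between genotypes for any member in roots (0 of 10 called, 0% of all features), with differences from -0.28 (KNAT7) to 0.18 (MYB83), nor in shoots (0 of 6, 0%).

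KNAT7, the 3 CESA genes and both XCP genes, the 6 that passed the filter in shoots as well as roots, were each called higher in roots than in shoots of mock-treated Col, with 38.3% of all 20818 tested features called higher in roots. KNAT7 led, with 24.9 ± 4.23 FPKM in roots and 2.00 ± 0.230 in shoots (3.10 ± 0.15 on the log2 scale), followed by XCP1 (68.0 ± 4.58 and 8.12 ± 1.49 FPKM, 2.93 ± 0.14). CESA7 (1.86 ± 0.15), CESA8 (1.52 ± 0.13), CESA4 (1.37 ± 0.09) and XCP2 (1.25 ± 0.13) were next in size, all with SE and n = 4 against 4. In mock ahp4 the same 6 were called higher in roots (37.9% of all tested features), again led by KNAT7 (3.58 ± 0.16) and XCP1 (3.36 ± 0.15). The other regulators entered this fit through their root libraries alone, so their levels are given with no test. MYB46 averaged 2.78 FPKM in roots and 0.799 in shoots of mock Col, VND7 1.31 and 0.208, VND6 0.881 and 0.343, with overlap, and MYB83 0.572 and 0.139. In mock ahp4 MYB46 averaged 3.11 and 0.595 FPKM and VND7 1.34 and 0.188, while VND6, at 0.661 and 0.482, and MYB83, at 0.549 and 0.348, overlapped between the organs. Over both treatments and genotypes each of the 6 had every one of 16 root libraries above every one of 14 shoot libraries. Of all tested features, 22% stood apart in this way with roots higher. VND7 and MYB46 stood apart too, but they entered through root libraries alone, so nothing is read from that. VND6 and MYB83 overlapped between the organs. The differences of those 2 depend on the scaling, since from 0.47 and 0.46 in Col they went to 0.02 and 0.06 with quantile normalization, and from 0.16 and 0.20 in ahp4 to -0.31 and -0.27. Scaling by read totals moved the median of all features from 0.07 to 0.53 in Col, so a root minus shoot value is relative to that shift.

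**Figure D3:**
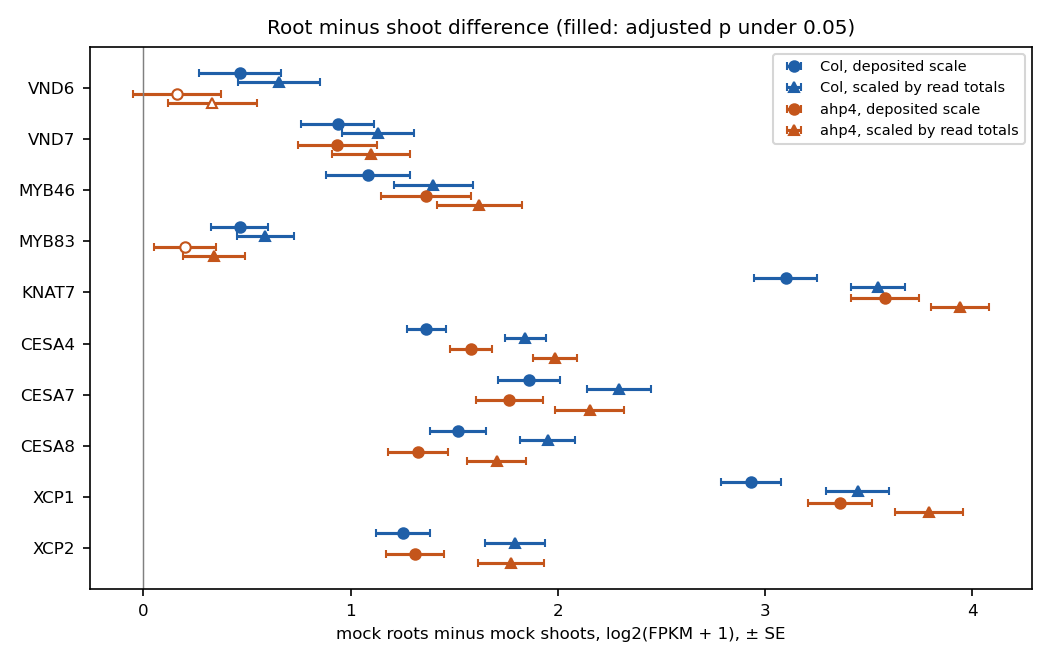
Root minus shoot difference under mock (horizontal axis, log2(FPKM + 1), ± SE) for each gene, by genotype and by scaling, filled where the limma adjusted p was under 0.05. KNAT7 and XCP1 stood at 2.93 to 3.58 on the deposited scale and the other 8 genes at 0.16 to 1.86. VND6, VND7, MYB46 and MYB83 passed the filter through roots alone, so nothing is read from whether their points are filled.

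The peptidases, which have a shared role, stood in different ratios in the organs. XCP1 over XCP2 was 0.835 ± 0.0751 in Col root mock and 0.239 ± 0.0257 in Col shoot mock (SD, n = 4 each), and 0.815 ± 0.0301 (n = 4) against 0.174 ± 0.0180 (n = 3) in ahp4, with no overlap in either genotype. In shoots XCP2 was thus the more abundant of the pair by a wide margin, at 33.8 ± 3.87 FPKM against 8.12 ± 1.49 for XCP1 in Col. CESA7 over CESA4 was 0.849 ± 0.0486 in roots and 0.521 ± 0.0896 in shoots of Col, without overlap, but 0.864 ± 0.0771 and 0.711 ± 0.0925 in ahp4, with overlap. CESA8 over CESA4 was 0.666 ± 0.0126 and 0.534 ± 0.0232 in Col, without overlap, and 0.599 ± 0.0649 and 0.686 ± 0.113 in ahp4, where shoots averaged higher and the groups overlapped.

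**Figure D4:**
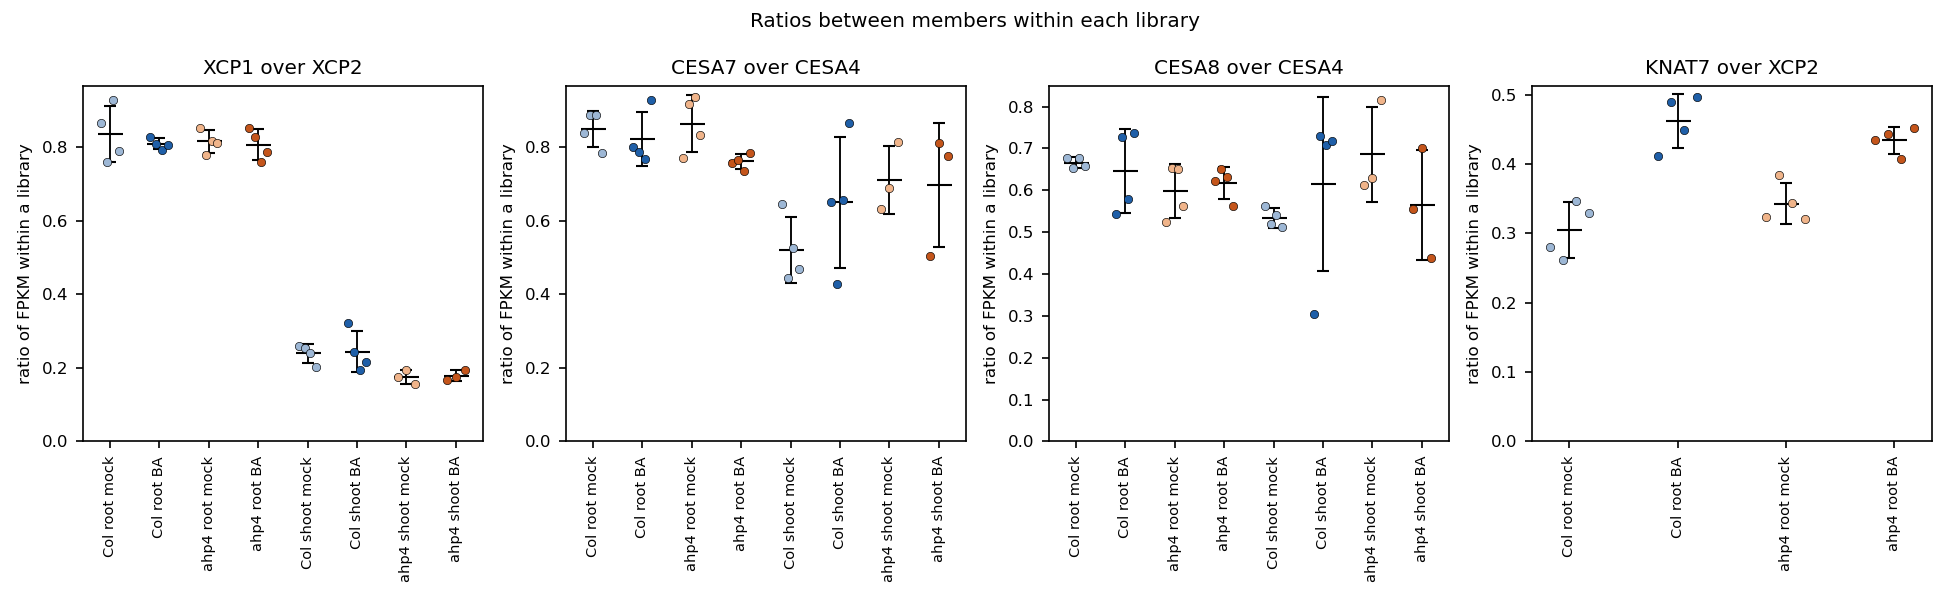
Ratio of FPKM between members within each library (vertical axis, from 0), with group mean and SD. XCP1 over XCP2 lay at 0.760 to 0.927 in Col root mock and 0.202 to 0.258 in Col shoot mock, and KNAT7 over XCP2 was 0.412 to 0.496 in Col root BA against 0.261 to 0.347 in Col root mock. The pairs were chosen after their values were seen.

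The wider pathway was followed in lists of 88 further genes, whose counts stand beside 11.8% of all tested features called higher and 8.75% lower in Col roots, and 11.4% and 9.26% in ahp4 roots. In Col roots, 3 of the 8 tested NAC factors of xylem and fibres were called higher and 0 lower: VNI2, a repressor of VND7, rose by 1.13 ± 0.18, VND2 by 0.68 ± 0.17 and VND4 by 0.49 ± 0.13. Of the 11 tested secondary wall MYB factors, 5 rose, led by MYB4 (1.24 ± 0.25), MYB32 (0.83 ± 0.16) and MYB7 (0.78 ± 0.17), which act as repressors of phenylpropanoid genes, and MYB52 (0.70 ± 0.22). The list medians were 0.21 and 0.43, beside -0.00 over all tested features. In ahp4 roots 4 NAC factors (VNI2 by 0.94 ± 0.18, VND2 by 0.52 ± 0.17, VND5 by 0.52 ± 0.17 and VND4 by 0.50 ± 0.13) and 1 MYB factor, MYB4 (0.99 ± 0.25), rose, with medians of 0.37 and 0.16. VNI2 and MYB4 were called higher in BA shoots as well, by 0.96 ± 0.14 and 0.87 ± 0.13 in Col and by 1.13 ± 0.16 and 0.81 ± 0.15 in ahp4.

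Other secondary wall cellulose and xylan genes had 3 of 12 called higher in Col roots, IRX10 (0.41 ± 0.11), CTL2 (0.34 ± 0.11) and IRX14 (0.26 ± 0.07), with a median of 0.26, and 1 of 12 in ahp4 roots, IRX14 (0.22 ± 0.07), beside 11.8% and 11.4% of all tested features, so the ahp4 count is near the share over all features. Of the 6 tested cellulose synthases of the primary wall 0 were called in Col roots (0 at an unadjusted p under 0.05), and CESA2 fell in ahp4 roots by 0.39 ± 0.13. Among 18 lignin genes 3 rose in Col roots, PAL4, CCR1 and CAD5, and 2 fell, FAH1, the ferulate 5-hydroxylase, by 1.20 ± 0.25 and CYP98A3 by 0.40 ± 0.10, and FAH1 fell in ahp4 by 1.64 ± 0.25. The Col lignin counts are near the shares over all features, 11.8% higher and 8.75% lower, and the list median was -0.01. In the vascular patterning list, 3 of 13 rose in Col roots (LBD18, ACL5 and T5L1) and 4 fell, among them the HD-ZIP III gene REV by 0.57 ± 0.11 and LHW, a basic helix-loop-helix factor of the procambium, by 0.35 ± 0.10. In ahp4 roots 0 rose and 4 fell, with REV at -0.62 ± 0.11. Of 2 tested partners of KNAT7, 0 were called in either genotype. Of 5 tracheary element cell death genes 0 were called in either genotype, with 2 at an unadjusted p under 0.05 in Col and 1 in ahp4, and of 4 pit and microtubule genes MAP70-1 rose in both (0.29 ± 0.08 and 0.36 ± 0.08).

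**Figure D5:**
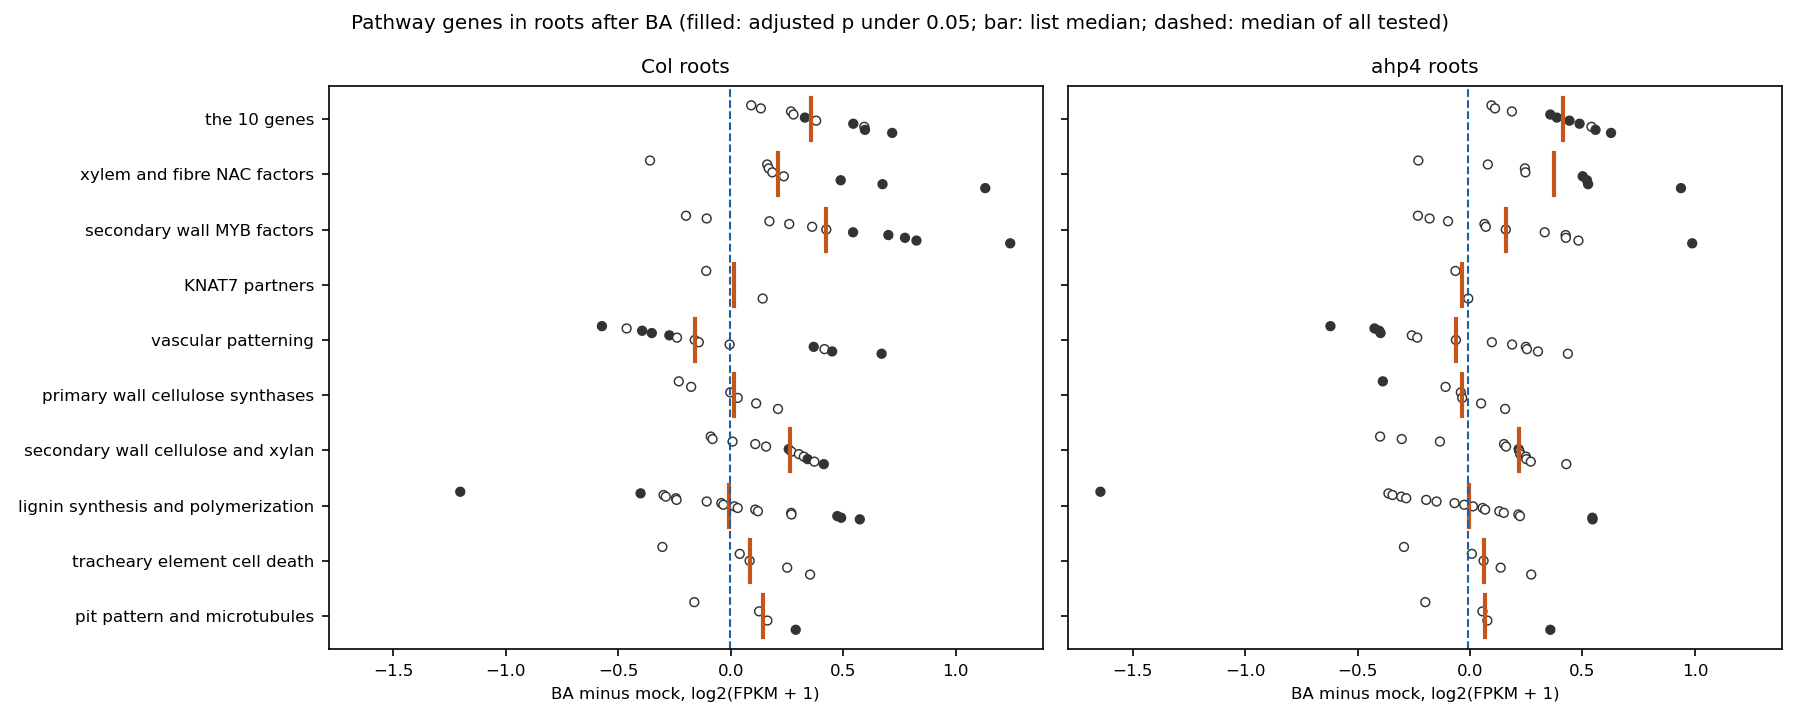
Change after BA (horizontal axis, BA minus mock on log2(FPKM + 1)) of each tested gene of the 10 members and 9 further lists in Col and ahp4 roots, filled where the limma adjusted p was under 0.05, with each list's median as a bar and the median of all tested features dashed. The 10 genes had medians of 0.36 in Col and 0.41 in ahp4, beside -0.00 and -0.01.

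The features most alike to each gene were found by Pearson's r of log2(FPKM + 1) over the 30 libraries after removing each organ's mean. This is a description in which libraries share their scaling. Differences between treatments and genotypes were not removed, so a shared response to BA enters r. XCP1 was most like GAUT12 (r = 0.80), a xylan gene also called IRX8, followed by AT5G51890 (0.73) and LAC17 (0.72), a laccase, and XCP2 was most like DMP2 (0.83) and FLA11 (0.73). CESA7 was most like CTL2 (0.76), which was also among the 5 nearest of XCP1 and XCP2, and CESA7 itself was among the 5 nearest of XCP2 (0.72). The nearest feature of KNAT7 was EULS3 (0.88), of VND7 WRKY35 (0.84), of VND6 ZFP2 (0.75), of MYB83 AT2G36180 (0.78) and of MYB46 AT4G37880 (0.73). CESA4 lay nearest to CKX2 (0.81), a cytokinin oxidase gene, and CESA8 to AT1G14570 (0.81).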

How the data were processed

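Polyadenylated RNA of 30 libraries was measured. The authors deposited FPKM values for 33199 features, 6306 of them at 0 in every library, and per the submitters' processing notes the genome build was TAIR10. No source used here names the aligner, the counter or whether strand was used. Whole reads could be rebuilt from the FPKM steps for 100% of the 26893 features above 0, within 0.01 reads, and the gene lengths behind them equalled exon lengths in TAIR10.1 for 97.8% of 26322 features, the 10 genes included, so coordinates are those of TAIR10.1. The scale was that of median-of-ratios size factors, on which shoots held 1.404 times as many reads as roots.

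Limma 3.58.1 in R 4.3.3 was run with a mean-variance trend on log2(FPKM + 1). The filter required 1 FPKM in at least 3 libraries of a fit, with Benjamini-Hochberg adjustment over all of them and calls at an adjusted p under 0.05. The 4 groups of an organ shared a fit, and comparisons of organs used all 8 groups, with no replicate block. Ratios were described without a test. The members were set by gene code, and the lists of further genes were chosen with earlier results of these data known. All 10 members were named, and of most other lists at most 4 called genes per comparison, those with the largest change. In Col roots more than 4 were named from the lignin list and from the vascular patterning list. Alternatives changed the pseudocount to 0.1, the filter, the normalization, the test (limma-voom on rebuilt reads), the replicate block, the groups in the fit and the libraries. Counted with them were the average over both genotypes for BA changes and over both treatments for genotype differences. Errors are SD of levels or SE of changes.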

Additional observations from a re-analysis of the deposited data

Results flagged for a closer look

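In 60 groups of 4 libraries, the highest or lowest library stood apart from the rest in 4 by Dixon's test (critical value 0.829), where chance flags about 1 group in 20. VND7 was highest in Col root BA replicate 4 at 3.98 FPKM, and XCP2 in the same library at 102 FPKM. CESA8 was highest in ahp4 root BA replicate 3 at 13.9 FPKM, and XCP2 in that library at 127 FPKM. All 4 fall in the libraries in which 7 and 8 of the 10 genes were at their group's highest. They are themselves among those highest values, so nothing is read from this.

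The BA response of roots exceeded that of shoots, by a test of the difference in limma, for KNAT7 (0.76) and CESA4 (0.48) in Col on the log2 scale. KNAT7 rose in roots by 0.72 and changed by -0.04 in shoots, and CESA4 rose by 0.33 and changed by -0.15. MYB83 in ahp4 had a difference of 0.66 with a limma adjusted p under 0.05, but it passed the filter through roots alone and was over that threshold in 15 of 21 alternatives, so nothing is read from it.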

How the results depend on the processing

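Of 120 tested changes of the 10 genes, limma called 31, and 19 of these held under every alternative run, counting comparisons of organs for the 4 regulators that passed the filter through roots alone. Counts of BA calls in roots also include MYB83, which passed the filter through BA libraries alone. Over 2183 values from the alternatives, 52 calls were lost, 13 were gained and 0 were reversed among called changes. Averaged over both genotypes, an alternative added after the values were seen, 8 of 10 genes were called in roots against 4 in Col. For the Col difference between organs in the BA response, a pseudocount of 0.1 and limma-voom on rebuilt reads each left 1 call of 2 (CESA4). For that in ahp4, the pseudocount of 0.1, quantile normalization, limma-voom and a fit of the compared groups alone left 0 of 1. When 1 library was left out, calls ran from 3 to 4 in Col roots, from 3 to 6 in ahp4 roots, from 9 to 10 for mock Col organs, from 8 to 8 for mock ahp4 organs, from 1 to 2 for the Col difference in response, from 0 to 1 for that in ahp4, and were 0 for the rest. Over all tested features such calls ran from 3053 to 3877 in Col roots and from 3178 to 4230 in ahp4 roots. Counts over all features moved by over 1.5 times for Col shoots (1487, lowest 811) and ahp4 shoots (716, lowest 330). They did so too for the genotype in mock roots (17, from 5 to 26) and BA roots (5, lowest 1). Averaged over both genotypes, which is another comparison, 7050 features were called in roots against 3982 in Col and 4020 in ahp4. In shoots that average had 3161, against 1487 and 716. Averaged over both treatments, 18 features were called between the genotypes in roots. The organ difference in BA response had 2411 calls in Col (1562 lowest) and 1824 in ahp4 (1022 lowest). Libraries of the same number had a correlation over 0.1 in 10 of 24 root pairs and 5 of 19 shoot pairs. Pairs of different number were not set beside these, so the counts do not settle whether the numbers pair libraries. The main fit took no pairing. With a replicate block 5 genes were called higher in Col roots (VND6 in addition, limma adjusted p = 0.0385), beside 2408 of all 19418 tested features. In ahp4 roots 6 were called higher, MYB83 included, beside 2320 of all tested features. The cause of these changes was not tested. Depth limits the regulators, with 7 to 97 reads per root library for VND6, VND7, MYB46 and MYB83 and 0 to 20 in shoots.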
